A study of Mus musculus with 6 samples.

Results

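The 10 genes described here encode transcription factors that hold the B cell state or drive the plasma cell fate. They were chosen by name (Prdm1, Xbp1, Irf4, Irf8, Bach2, Pax5, Bcl6, Ebf1, Spib and Foxo1), and each was found once among the 55487 genes of the deposited table. All 10 passed the filter on low counts. Bulk RNA came from 14-week-old mice of 2 genotypes, a CD55 knockout (CD55KO, 3 libraries) and wild-type C57BL/6 (WT, 3 libraries). The cells were marginal zone (MZ) B cells, which sit at the edge of the splenic follicles and respond early to blood-borne antigens, and had been enriched by negative selection for B cells and then isolated by flow sorting. CD55 is a membrane protein that restrains complement activation on the cell carrying it, and the 2 groups differ in the genotype at Cd55. Neither the deleted part of Cd55, nor the strain background of the knockout, nor whether the libraries came from separate or pooled mice is stated in the labels. The spread behind each p-value is therefore that of the libraries alone and may be technical.

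As background, a B cell and a plasma cell are held apart by factors that repress one another. PAX5, EBF1 and FOXO1 maintain the B cell programme, while BACH2, BCL6, IRF8 and SPIB restrain the switch to antibody secretion. BLIMP1, the product of Prdm1, shuts down the B cell programme, IRF4 at high levels helps to induce Prdm1, and XBP1 builds the secretory apparatus. MZ B cells are known for turning into plasma cells rapidly. Prdm1, Xbp1 and Irf4 are called the plasma side below and the other 7 genes the identity side. The sides were assigned from this background and not from the values.

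Total counts ranged from 20056064 to 30784031 per library, and WT replicate 1 was the shallowest. A principal component analysis also set it apart, on component 1 with 28.8% of variance. Component 2, with 22.5%, separated the genotypes (0.145 to 28.4 in CD55KO and -22.6 to -13.0 in WT). Cd55 itself was at 110 to 125 CPM (counts scaled to a common library size by TMM) in WT and at 6.23 to 8.95 CPM in CD55KO, in the direction of the labels. Values below are given in the order of replicates 1, 2 and 3 of a genotype. The 11 MZ markers, led by the complement receptor gene Cr2, summed to 4754 to 5135 and 4753 to 5088 CPM. Of these, 0 passed the adjusted test described below by edgeR, DESeq2 or limma-voom. The unadjusted edgeR p was under 0.05 for 2 of them. Neutrophil markers summed to less than 1 CPM in each library, with Ly6g, Elane and Retnlg at 0. T cell markers summed to 42.2 to 51.1 CPM, macrophage and monocyte markers to 18.3 to 28.9 CPM, dendritic cell markers to 43.7 to 62.1 CPM (Clec9a at 0), NK cell markers to 26.9 to 35.3 CPM (Ncr1, Gzmb and Eomes at 0) and platelet markers to 0.462 to 1.17 CPM over all libraries. Of these 5 lists, edgeR, DESeq2 and limma-voom each called 0 genes, and 1 had an unadjusted edgeR p under 0.05. It was the macrophage gene Cd68, with a log2 fold change of 0.45 (unadjusted p = 0.0025, edgeR adjusted p = 0.209). Most of the T cell, dendritic cell and NK cell sums came from 1 gene each, Lck, Bst2 and Prf1. Lck averaged 41.7 CPM and Bst2 45.2 CPM over all libraries. Apart from Lck, the tested T cell markers averaged 0.432 CPM (Cd3d) and 2.82 CPM (Cd5). Apart from Bst2, the tested dendritic cell markers averaged from 0.494 CPM (Xcr1) to 2.34 CPM (Flt3). The part of other cell types in the values of the factors was not tested. Red cell transcripts varied most, from 35.8 to 1989 CPM in CD55KO and from 105 to 4351 CPM in WT. The sum of 4351 CPM was that of WT replicate 1, and its part in component 1 was not tested.

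Xbp1 was the 1 factor that changed by the test over all genes: it fell in CD55KO. Of the 10 factors, 1 was lower, 0 were higher and 9 did not pass at an adjusted p of 0.05 (quasi-likelihood test of edgeR, adjusted over all genes), while 0.399% of the 13794 tested genes passed in either direction. Prdm1, Bcl6 and Spib had lower means and Bach2 and Ebf1 higher means in CD55KO, with libraries that did not overlap. In all, 6 of the 10 factors had libraries that did not overlap between genotypes, 4 lower and 2 higher, against 14.1% of tested genes (6.84% lower and 7.24% higher). An unadjusted p under 0.05 was found for 5 of the 10, 3 lower and 2 higher, against 8.6% of tested genes (4.3% in each direction). The members were chosen with earlier results of these data known, so these shares are no measure of enrichment. The median log2 fold change (CD55KO against WT, as for all fold changes here) was 0.03 over the 10 factors and 0.00149 over all tested genes.

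**Figure D1:**
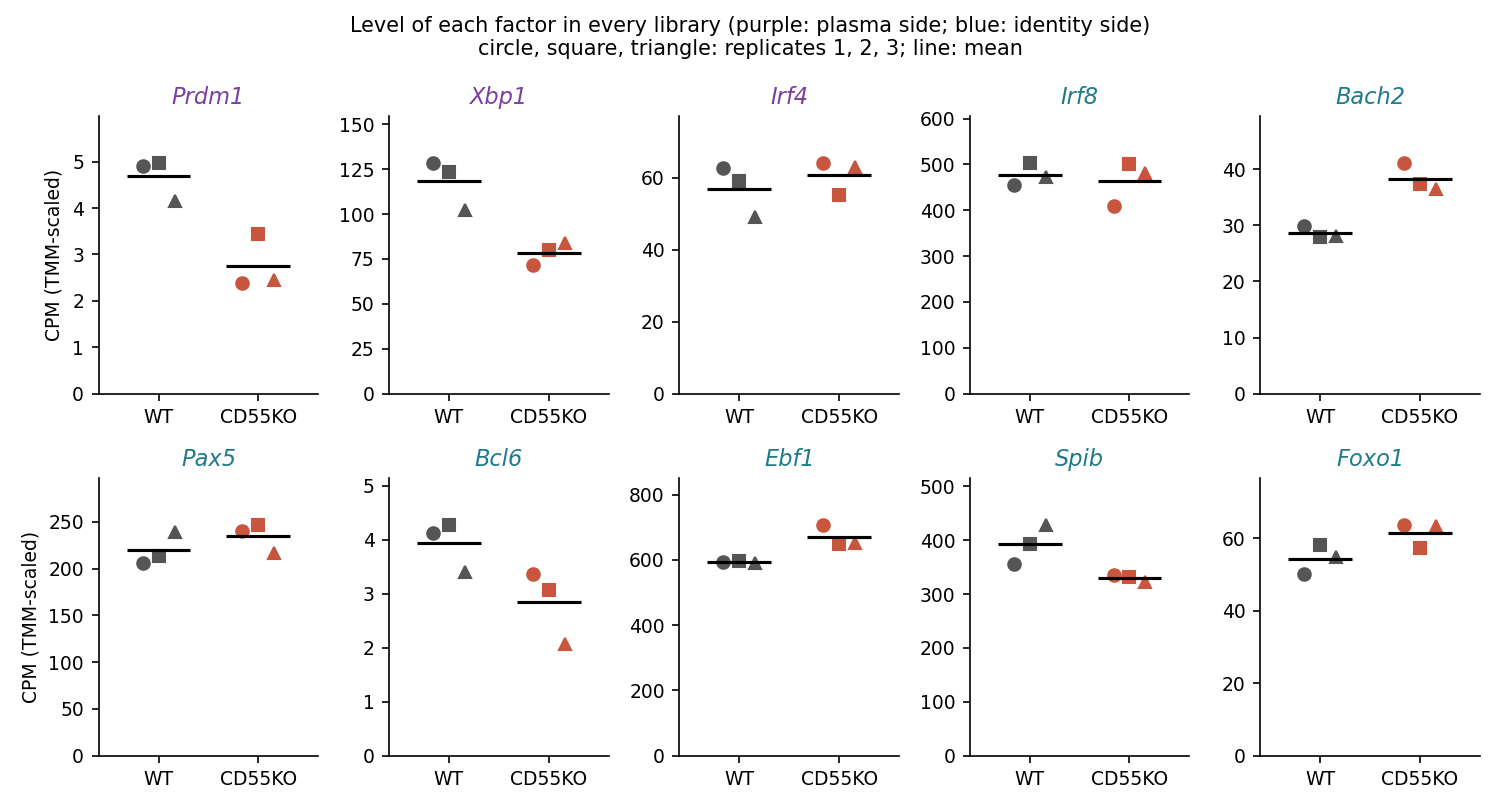
TMM-scaled CPM (vertical axes, starting at 0) of the 10 factors in each of the 3 WT and 3 CD55KO libraries, 1 point per library with the group mean as a line. Xbp1, Prdm1, Bcl6 and Spib sit lower in every CD55KO library than in any WT library, and Bach2 and Ebf1 higher.

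Xbp1 encodes the basic leucine zipper factor of the unfolded protein response, the programme that expands the folding capacity of the endoplasmic reticulum (ER). It lies on the plus strand at chr11:5520659-5525893 (GRCm38). Its mRNA is activated by an unconventional splicing step in which the enzyme IRE1 removes a short intron of 26 bases. That intron was found in 3 of the 4 annotated Xbp1 transcripts and is shown in capitals, since a count per gene adds up the spliced and unspliced forms and cannot tell them apart.
Xbp1 intron: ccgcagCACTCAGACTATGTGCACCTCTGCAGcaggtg

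Xbp1 was measured at 71.6, 80.0 and 83.8 CPM in CD55KO and at 129, 124 and 102 CPM in WT. The highest CD55KO library was thus below the lowest WT library, WT replicate 3. Fitted expression was 0.664-fold that of WT (95% interval 0.582 to 0.759), a log2 fold change of -0.59 ± 0.09 (SE, edgeR adjusted p = 0.0047). It ranked 22nd of all tested genes by p. The fall passed whichever of the 6 libraries was left out, with log2 fold changes from -0.68 to -0.52 and an edgeR adjusted p from 0.0018 to 0.037.

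Prdm1 encodes BLIMP1, the repressor that ends the B cell programme, and lies on the minus strand at chr10:44437177-44528501. It was measured at 2.38, 3.44 and 2.45 CPM in CD55KO and at 4.91, 4.98 and 4.16 CPM in WT. All CD55KO libraries were below all WT libraries. Fitted expression was 0.589-fold that of WT (95% interval 0.421 to 0.822), but the difference did not pass over all genes (log2 fold change -0.76 ± 0.23 SE, edgeR adjusted p = 0.254, unadjusted p = 0.0039). The values rest on few reads, 65 to 85 counts in CD55KO and 101 to 156 in WT. The exact 95% Poisson interval of the count of 65 is 50.2 to 82.8, which covers counting error only.

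Irf4 encodes an interferon regulatory factor whose rising level accompanies plasma cell formation, and lies on the plus strand at chr13:30749226-30766976. It was measured at 64.2, 55.1 and 63.0 CPM in CD55KO and at 62.6, 59.1 and 49.1 CPM in WT. The genotypes overlapped, and the fold was 1.07 with a 95% interval of 0.929 to 1.23 (edgeR adjusted p = 0.847). The point estimate for Irf4 was thus above 1, while those of Xbp1 and Prdm1 were below 1. Without WT replicate 3, the Irf4 log2 fold change was -0.00067.

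The 250 bases before the RefSeq start of Xbp1 and Prdm1 are shown because these genes had the lowest log2 fold changes among the factors (sequences from RefSeq, GRCm38.p6, 5′ to 3′ on the strand of the gene). The windows are chr11:5520391-5520640 on the plus strand for Xbp1 and chr10:44458749-44458998 on the minus strand for Prdm1, whose RefSeq start lies inside the GENCODE gene. Capitals mark matches, on either strand, to CCACG (part of sites bound by XBP1 and ATF6), ACGT (the core of bZIP sites of that kind), GTAAACA (FOXO), GAAAGTG (BLIMP1) and TGAGTCA (BACH2).
Xbp1: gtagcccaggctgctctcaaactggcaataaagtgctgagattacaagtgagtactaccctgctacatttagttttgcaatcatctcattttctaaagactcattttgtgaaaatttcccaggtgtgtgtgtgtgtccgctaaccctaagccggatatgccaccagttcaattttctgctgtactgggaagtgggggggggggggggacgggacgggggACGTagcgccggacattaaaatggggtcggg
Prdm1: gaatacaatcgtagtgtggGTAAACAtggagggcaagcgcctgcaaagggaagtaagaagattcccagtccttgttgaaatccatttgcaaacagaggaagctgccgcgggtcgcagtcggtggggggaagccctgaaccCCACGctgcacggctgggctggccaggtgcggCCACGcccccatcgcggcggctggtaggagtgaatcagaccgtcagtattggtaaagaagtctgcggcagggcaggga

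The Xbp1 window held 1 match, an ACGT 31 bases before the start, a motif present in 26.9% of 32851 promoter windows of this length. The Prdm1 window held CCACG at 110 and 78 bases before the start (28.3% of windows have at least 1) and GTAAACA at 231 bases (3.17% of windows). GAAAGTG and TGAGTCA, present in 4.01% and 4.46% of windows, matched in neither. CCACG and ACGT can overlap one another. These matches describe the letters in the windows only, and binding was not measured.

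Bach2 had the smallest p on the identity side. It encodes a bZIP repressor that holds Prdm1 down in B cells, and lies on the plus strand at chr4:32238804-32586108. It was measured at 41.2, 37.4 and 36.4 CPM in CD55KO and at 30.0, 27.9 and 28.2 CPM in WT. Every CD55KO library was above every WT library. The fold was 1.34 (95% interval 1.17 to 1.53) with a log2 fold change of 0.42 ± 0.09 (SE), which did not pass (edgeR adjusted p = 0.056, unadjusted p = 0.00024). DESeq2 called it (adjusted p = 0.012) and limma-voom did not (adjusted p = 0.096). In the 6 edgeR fits without 1 library the adjusted p was 0.087 to 0.205.

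Pax5 and Ebf1 encode the factors that commit cells to the B lineage and keep them there. Pax5, on the minus strand at chr4:44524757-44710487, was measured at 241, 247 and 217 CPM in CD55KO and at 206, 214 and 239 CPM in WT. The genotypes overlapped, and the 95% interval of the fold was 0.944 to 1.21. Ebf1, on the plus strand at chr11:44617317-45008091, was measured at 708, 647 and 653 CPM in CD55KO and at 595, 595 and 589 CPM in WT. Its CD55KO libraries were all above the WT libraries, which differed from each other by a coefficient of variation of 0.550%. The Ebf1 fold was 1.13 (95% interval 1.00 to 1.27), and it did not pass (edgeR adjusted p = 0.579).

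Foxo1 encodes a forkhead factor held in check by PI3K signalling, and lies on the plus strand at chr3:52268336-52353221. It was measured at 63.7, 57.2 and 63.3 CPM in CD55KO and at 50.1, 58.2 and 54.9 CPM in WT. CD55KO replicate 2 lay below WT replicate 2, so the genotypes overlapped (fold 1.13, 95% interval 0.999 to 1.27, edgeR adjusted p = 0.585). Irf8 encodes an IRF family member that opposes IRF4 in B cells, and lies on the plus strand at chr8:120736358-120756694. It was measured at 409, 501 and 480 CPM in CD55KO and at 455, 504 and 472 CPM in WT. The genotypes overlapped, with a 95% interval of the fold of 0.848 to 1.11. The sign of its log2 fold change, -0.04, turned without CD55KO replicate 1 or WT replicate 2.

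Spib and Bcl6 had lower means in CD55KO although both belong to the identity side. Spib, an ETS factor gene on the minus strand at chr7:44525993-44532071, was measured at 335, 333 and 323 CPM in CD55KO and at 355, 392 and 429 CPM in WT. The CD55KO libraries lay close together, below all WT libraries, and the fold was 0.842 (95% interval 0.741 to 0.956, edgeR adjusted p = 0.365, unadjusted p = 0.011). Bcl6, the repressor gene that defines germinal centre B cells, lies on the minus strand at chr16:23965052-23988852. It was measured at 3.37, 3.07 and 2.07 CPM in CD55KO and at 4.13, 4.28 and 3.41 CPM in WT. The groups came within 0.0373 CPM of each other, the fold was 0.720 (95% interval 0.504 to 1.03, edgeR adjusted p = 0.627), and the counts were 59 to 134 per library.

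**Figure D2:**
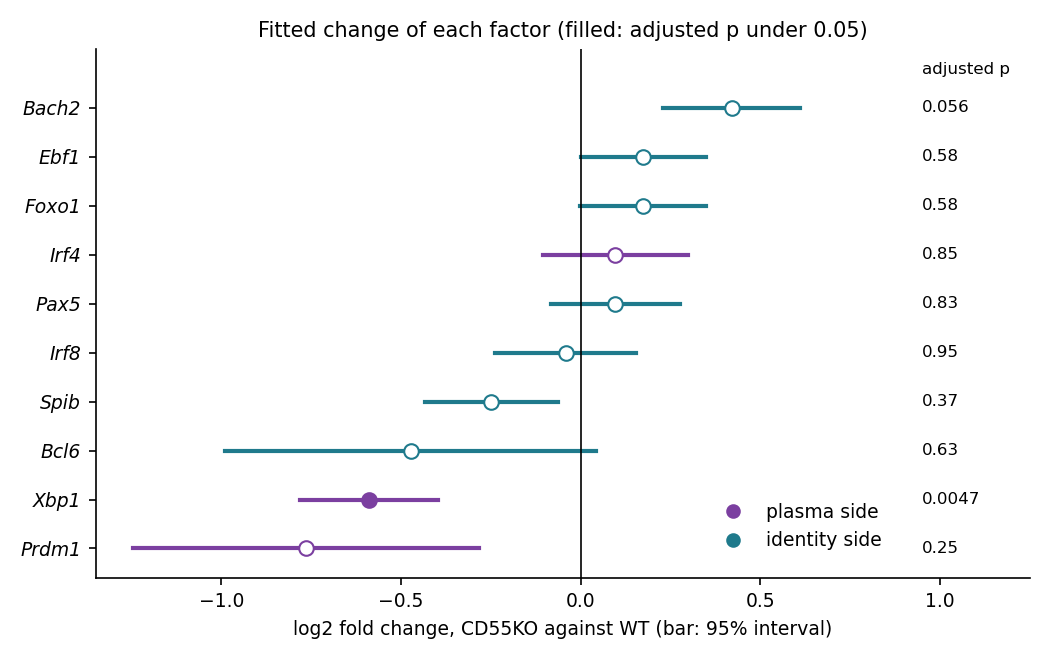
Fitted log2 fold change of CD55KO against WT (horizontal axis) for each factor with its 95% interval, coloured by side, with the adjusted p of edgeR's quasi-likelihood test at the right. Only the Xbp1 point is filled (adjusted p = 0.0047), and the intervals of Prdm1 and Bcl6, the genes with the fewest counts, are the widest.

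Levels of different genes were compared per kilobase of annotated exon. In WT the order of mean CPM per kilobase was Spib (137), Irf8 (67.6), Ebf1 (60.8), Xbp1 (36.4), Pax5 (24.8), Irf4 (11.6), Foxo1 (6.27), Bach2 (2.89), Prdm1 (0.839) and Bcl6 (0.588). Neighbours in this order did not overlap among the WT libraries. In CD55KO the order changed at 2 places by the means: Ebf1 (68.6) stood above Irf8 (65.7), and Pax5 (26.5) above Xbp1 (24.2), and the CD55KO libraries overlapped within both of these pairs. Prdm1 (0.494) and Bcl6 (0.424) also overlapped in CD55KO. These places depend on the length used: by the longest transcript, Xbp1 stayed above Pax5 in CD55KO (36.9 against 29.4 CPM per kilobase), Irf8 stood above Ebf1 (134 against 112) and Spib (118) there, and Bcl6 stood above Prdm1 in WT (1.00 against 0.886).

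The balance between the sides was described as the mean log2 CPM over Prdm1, Xbp1 and Irf4 minus that over the other 7 genes, in each library. No test was made of this score, since its members were chosen. It took values of -2.31, -2.12 and -2.09 in CD55KO and of -1.59, -1.71 and -1.94 in WT. All CD55KO libraries lay below all WT libraries, with means of -2.18 ± 0.12 and -1.75 ± 0.18 (SD, n = 3) and a difference of -0.43. The plasma side alone differed by -0.42, from 4.98 ± 0.17 in WT to 4.57 ± 0.08 in CD55KO, without overlap. The identity side, at 6.73 ± 0.04 in WT and 6.74 ± 0.07 in CD55KO, overlapped and differed by 0.01. The score gives each gene equal weight, and its size depended on single genes. The difference was -0.34 without Xbp1, -0.51 without Bcl6 and -0.44 without Irf8. It was -0.69 without Irf4 and -0.26 without Prdm1, both tried after seeing the data. With the median over the members of a side in place of the mean, the difference all but vanished (0.00222, of opposite sign). The medians were those of Irf4 and Pax5 in every library, so the values of Xbp1 and Prdm1 did not enter.

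Pairs of factors known to oppose each other were compared in the same way. The log2 ratio of Prdm1 to Bach2, its repressor, was -4.07, -3.41 and -3.85 in CD55KO and -2.59, -2.47 and -2.74 in WT, a difference of -1.18. The ratio of Prdm1 to Pax5 differed by -0.86 and that of Xbp1 to Pax5 by -0.68, both without overlap between the genotypes. The ratio of Prdm1 to Bcl6 differed by -0.28 and that of Irf4 to Irf8 by 0.15, and in both the genotypes overlapped. The ratios that separated the genotypes all had Prdm1 or Xbp1 above the line, the members with the lowest log2 fold changes. Since these genes did not overlap between the genotypes by themselves, the ratios in part restate their values.

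**Figure D3:**
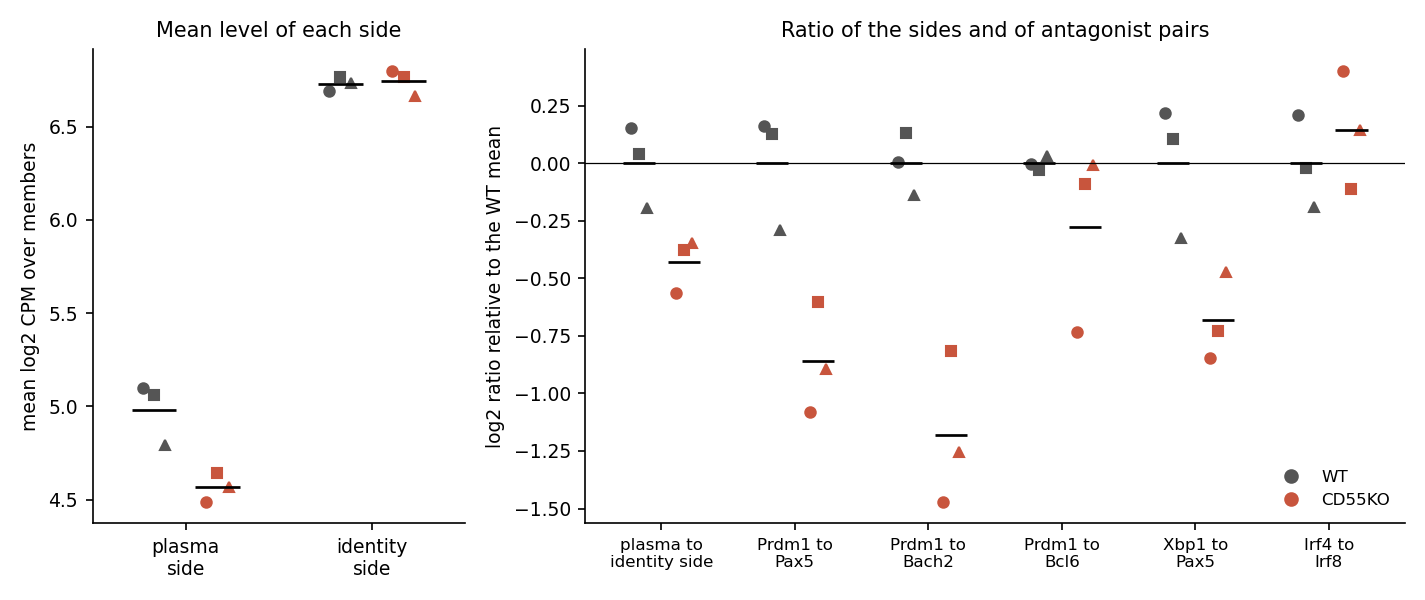
Left, mean log2 CPM over the 3 plasma side and the 7 identity side factors in each library. Right, log2 ratio of the sides and of 5 opposing pairs in each library relative to the WT mean (lines are group means): the sides differ by -0.43 and Prdm1 to Bach2 by -1.18, while Irf4 to Irf8 and Prdm1 to Bcl6 overlap.

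Genes that act with these factors were then examined in lists. Among unfolded protein response genes, which include known targets of XBP1, 8 of 26 tested members fell, 0 rose and 18 did not pass, with a median log2 fold change of -0.17. Which of these genes depend on XBP1 in these cells was not tested. In edgeR's test 0.261% of tested genes passed as lower. The list was chosen with earlier results of these data known, so no enrichment can be read from this share. Sdf2l1, whose product assists the chaperone BiP, fell by 0.84 on the log2 scale (edgeR adjusted p = 4.5e-05), and the ER stress gene Creld2 also fell by 0.84. Hsp90b1 and Dnajb11, chaperone genes of the ER, fell with log2 fold changes of -0.57 and -0.47. The Dnajb11 call was lost without CD55KO replicate 2 or WT replicate 3 (edgeR adjusted p up to 0.083). Of the 26 log2 fold changes, 23 were negative and 3 positive, while 49.6% of all tested genes had negative values. Those near 0 included Dnajb9 (-0.05), Sec61a1 (-0.05), Herpud1 (-0.02) and Edem1 (0.07), picked after seeing their values. Ern1, which encodes the IRE1 enzyme that splices Xbp1 (a gene picked after seeing its value), had a log2 fold change of -0.17 at a low level (edgeR adjusted p = 0.945). The count of 8 was 3 without CD55KO replicate 2 or without WT replicate 3, and 5 without WT replicate 1.

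Plasma cell markers other than the factors did not pass: edgeR, DESeq2 and limma-voom each called 0 of 9 tested. In edgeR, the unadjusted p was under 0.05 for 1 of them, Sdc1, against 8.6% of all tested genes. Their median was -0.07 on the log2 scale, with 4 positive and 5 negative values. Sdc1 encodes the plasma cell surface protein CD138 and averaged 0.964 ± 0.690 CPM against 2.15 ± 0.816 CPM in WT (SD, n = 3, edgeR adjusted p = 0.492). Jchain, the joining chain gene of secreted IgM and IgA, averaged 7.26 ± 4.01 against 19.9 ± 11.2 CPM (edgeR adjusted p = 0.694), with CD55KO libraries all below the WT libraries. Slamf7 and Txndc5 had log2 fold changes of 0.24 and 0.18. All 10 markers together reached 949 to 1078 CPM in CD55KO and 986 to 1148 CPM in WT, most of it Mzb1, which MZ B cells also express, and none was at 0. In bulk RNA, fewer plasma cells and less of a transcript per cell cannot be told apart, and the part of such cells in the Xbp1 and Prdm1 values was not tested.

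Germinal centre markers, which BCL6-expressing cells carry, had a median log2 fold change of -1.48, with 10 of 11 tested members negative. Among all tested genes, 49.6% were negative. Gcsam was the 1 member that edgeR called (log2 fold change -1.81, edgeR adjusted p = 0.034), but leaving out any 1 library ended its call, with an edgeR adjusted p as high as 0.161 when WT replicate 1 was removed. Nuggc, Rassf6 and Mef2b had log2 fold changes of -2.07, -1.48 and -1.86 and did not pass in edgeR with all 6 libraries. Without WT replicate 2, Nuggc (edgeR adjusted p = 0.0069) and Mef2b (edgeR adjusted p = 9.4e-05) passed. DESeq2 called 2 of the 11, Gcsam and Nuggc, as lower, and limma-voom called 0. Over all genes, edgeR called 0.261% of those tested as lower, DESeq2 76 genes and limma-voom 31. Averaged over the 11 genes, log2 CPM came to 3.02, 1.55 and 2.72 in the WT libraries and 0.74, 1.51 and 1.57 in the CD55KO libraries, so that WT replicate 2 lay within the CD55KO range. The summed level of the 11 markers was 43.3 to 55.6 CPM in CD55KO and 50.04 to 127 CPM in WT, with no marker at 0, and its part in the Bcl6, Prdm1 and Xbp1 values was not tested.

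Lists tied to the identity side held no called gene in edgeR. Of 18 tested B cell identity genes, among them targets of PAX5 and EBF1, 0 were called by edgeR, where 0 also had an unadjusted p under 0.05, and 0 by DESeq2 or limma-voom, with a median of -0.000287 on the log2 scale. Cd83, an activation marker, and Ms4a1, which encodes CD20, had log2 fold changes of -0.18 and -0.10. Vpreb3 and Pou2af1 had log2 fold changes of -0.24 and 0.08. Of 27 tested other B lineage transcription factors 0 were called by edgeR, DESeq2 or limma-voom. The AP-1 family gene Batf (log2 fold change 0.22) was the 1 gene of the 27 with an unadjusted p under 0.05 in edgeR. Over all tested genes that share was 8.6%. Foxp1, Spi1 and Etv6 had log2 fold changes of 0.16, -0.20 and -0.25. Of 9 tested FOXO1-associated genes 0 were called by the same tools and 0 had an unadjusted p under 0.05 in edgeR, with log2 fold changes of -0.22 for Bcl2l11, 0.34 for Sesn1 and 0.18 for Cdkn1b. Their median was 0.07, with 7 of 9 values positive, while 49.6% of all tested genes had negative values.

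**Figure D4:**
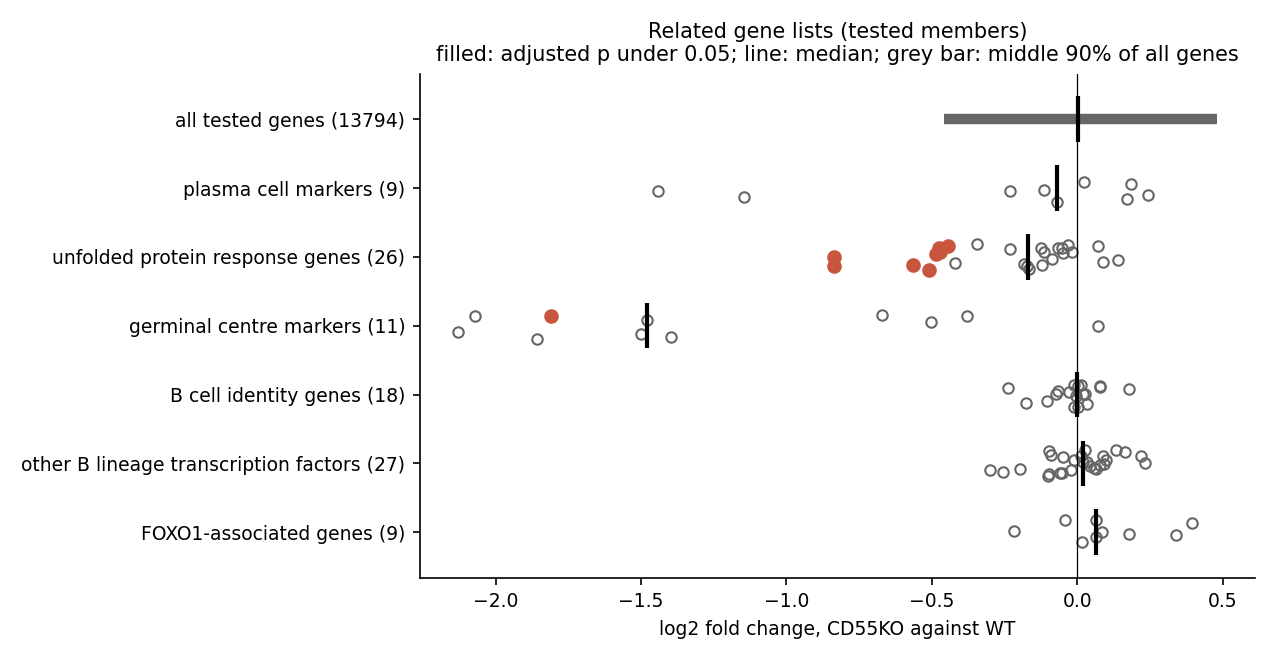
Log2 fold change of CD55KO against WT (horizontal axis) for the tested members of 6 related gene lists, with list medians as lines and, at the top, the middle 90% of all 13794 tested genes. Members that passed (filled) lie in the unfolded protein response list (8 of 26) and the germinal centre list (1 of 11).

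Genes with the pattern most like those of Xbp1 and Prdm1 were found by the root mean square difference in log2 CPM over the 6 libraries, after each gene was centred on its own mean. They were sought among 8533 other genes (8534 for Prdm1) with a mean of at least 5 CPM. Immunoglobulin genes and symbols starting with Gm and a digit or ending in Rik were left out. Fkbp4 (0.07), Nop9 (0.08), Zbtb2 (0.08) and Nagpa (0.11) were nearest to Xbp1, where the median of the compared genes was 0.34. Nearest to Prdm1 were H2bc4 (0.14), Fkbp4 (0.16), Tspan15 (0.16) and Gbp6 (0.17), with a median of 0.44. Fkbp4, which encodes an HSP90 co-chaperone, was near to both and fell in CD55KO from 194 to 129 CPM (edgeR adjusted p = 0.015). The likeness is a description over 6 libraries that share the genotype difference.

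**Figure D5:**
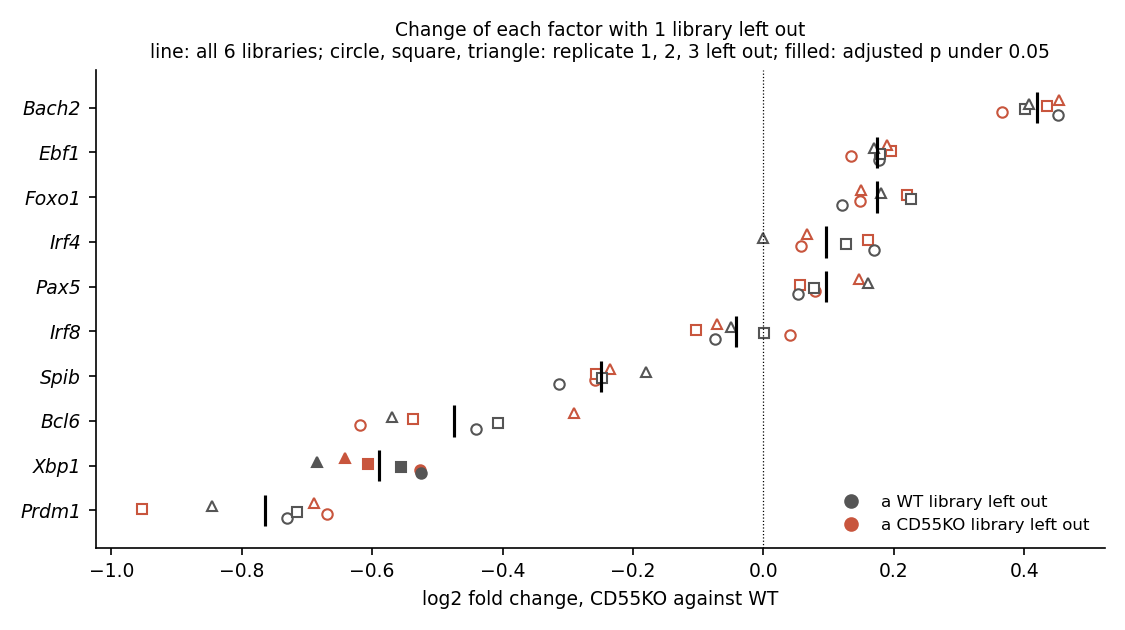
Log2 fold change of each factor (horizontal axis) with all 6 libraries (line) and with each library left out in turn (points, coloured by the genotype of the library left out). Only Xbp1 passes (filled), in 6 of 6 fits, and Irf4 and Irf8 cross 0.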

How the data were processed

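Bulk RNA was measured in 6 libraries of sorted MZ B cells, 3 per genotype, and group and replicate number came from the labels. RNA extraction used an RNeasy micro kit and library preparation a SMARTer Ultra Low RNA kit without strand information, per the labels' protocols. The authors deposited estimated counts of each gene, and their totals differ between libraries as unscaled counts do. DRAGEN, edgeR and limma stand in the submitters' processing notes with no role named (genome build: not given in the sources used here). Nonzero values that were not whole (tolerance 0.005) made up 30.9 to 31.9% of a library.

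The 287 repeated rows, identical for the same gene ID, were removed and counts were rounded. GENCODE M21 (GRCm38) gave positions and lengths by gene ID, with 99.4% of IDs found. Promoters came from RefSeq, where all 10 factors matched. Of opposite-strand genes overlapping the factors, 5730488B01Rik in Pax5 had the most counts, 136 to 234, and reads of such pairs cannot be told apart. Same-strand Gm20388 spans Irf8 (0 to 234 counts).

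The genotype comparison used edgeR 4.0.16 under R 4.3.3, with filterByExpr (minimum count 10, minimum total 15; 13794 genes kept), TMM scaling, robust quasi-likelihood F-test with genotype alone, and Benjamini-Hochberg adjustment over all tested genes at 0.05. The SE is the fitted coefficient divided by the root of F, and 95% intervals use the test's degrees of freedom. Log2 CPM used a prior count of 2. A count of 0 allows up to 3 counts, 0.0975 to 0.150 CPM, counting error only. Replicate pairs of a genotype were not copies of one another (chi-square of 14.2 to 36.1 for each degree of freedom).

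All 10 factors are named, with the 4 tested genes of smallest p from each of 6 lists (members apart) and the 4 genes of nearest pattern for Xbp1 and Prdm1. Some values that the rule and the lists give are not reported here. The members and lists were chosen with earlier results of these data known. Alternatives were DESeq2 1.42.0, limma-voom (limma 3.58.1) with and without quality weights, other scalings and filters, immunoglobulin genes left out, a replicate block, other forms of the balance and each library left out. Balance without Prdm1 or without Irf4 was added after seeing the data.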

Additional observations from a re-analysis of the deposited data

How the results depend on the processing

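The direction and side of the threshold of the Xbp1 fall held in all 15 alternatives to the edgeR result (9 other settings and 6 fits without 1 library), with log2 fold changes from -0.68 to -0.52 and an adjusted p of at most 0.037. Prdm1, Bcl6, Spib, Foxo1, Ebf1 and Pax5 kept their sign and were called in none of the 15. Bach2 passed with the DESeq2 Wald test (log2 fold change 0.41) and without a count filter (0.42), which made 1 factor higher and 2 factors called in all under each. Counts of called genes, 55 over all tested (19 higher and 36 lower), became 137 (61 and 76) with DESeq2 and 232 (104 and 128) without a count filter, which also raised the called members of the 6 lists from 9 to 14. Without 1 library, 37 to 53 genes were called, 12 to 20 of them higher and 24 to 35 lower, with 3 to 9 list members and 3 to 7 unfolded protein response genes. The sign of Irf8 turned without CD55KO replicate 1 and without WT replicate 2 (0.00041), within a range of -0.104 to 0.0414, and that of Irf4 without WT replicate 3 (range -0.00067 to 0.169), the cause of which was not tested.

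The difference in balance all but vanished when medians replaced means (0.00222, of opposite sign), since the medians are then those of Irf4 and Pax5 alone. It was -0.69 without Irf4 and -0.26 without Prdm1, both chosen after seeing the data, and -0.53 to -0.35 without 1 library. With the replicate number as a block, 64 genes were called and 1 factor, Xbp1 (adjusted p = 0.011 by edgeR), and Bach2 had an adjusted p of 0.078. The block changed no call among the factors. Same-numbered libraries had correlations of their deviations of 0.07, -0.12 and 0.17, against -0.23 to 0.17 for differently numbered ones. The numbers thus showed no sign of pairing, which 3 libraries per genotype cannot exclude. Depth limits Prdm1 and Bcl6 most, with counts of 59 to 156 per library and the widest intervals among the factors. The interval of the Prdm1 fold (0.421 to 0.822) left out no change, although Prdm1 did not pass over all genes. That of the Bcl6 fold (0.504 to 1.03) included no change.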
